A study of Mus musculus with 8 samples.

Results

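The genes described here build the contractile apparatus and the cytoskeleton of smooth muscle. They are 31 genes, chosen by symbol as a list of actin, myosin, their regulators, anchoring proteins and receptors, out of 24411 rows of the count table. Earlier results of these data were known when the list was chosen, so shares of the list set beside shares of all genes are descriptions. All 31 were found, and all 31 were among the 14679 genes that passed the filter on low counts. The whole aortas of 8 mice were sequenced. All were ApoE(-/-), lacking apolipoprotein E, and caIKK2(+/+), carrying a constitutively active form of the kinase IKK2 behind a loxP-flanked stop cassette. The 5 caIKK2EC mice were BMXCreERT2(+/-) and the 3 Control mice were BMXCreERT2(-/-) littermates. Per the labels, this tamoxifen-inducible Cre acts in arterial endothelial cells, so smooth muscle was not the cell type in which the kinase was switched on. All 8 mice received tamoxifen (1 mg per 20 g of body weight on 5 days) and a Western-type diet for 12 weeks. Mice were 18 weeks old (Control 1 and 2, caIKK2EC 1 and 3) or 19 weeks old (Control 3, caIKK2EC 2, 4 and 5), and all were female except Control 3. Whether the kinase was activated early or late in disease in the 8 mice was not given in the sources used here.

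Smooth muscle cells of the arterial media contract when calcium and calmodulin activate myosin light chain kinase, which phosphorylates the regulatory light chain of smooth muscle myosin. Myosin phosphatase reverses this step, and the thin filament of actin, tropomyosin, caldesmon and calponin is anchored in dense bodies and at integrin adhesion sites. In atherosclerosis, medial cells are known to lose contractile proteins and to take on other states, and genes of this apparatus are widely used as markers of the contractile state. Many of them are controlled by serum response factor and its partner myocardin, which act through a short DNA element called the CArG box.

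Libraries held 23461655 to 30808502 counts, and the 31 genes together took 3.79%, 4.27% and 6.75% of those of Controls 1 to 3, in that order, and 2.14%, 4.06%, 2.73%, 2.85% and 2.83% of those of caIKK2EC 1 to 5. Values below are CPM (counts scaled to a common library size by edgeR with its TMM factors). Several libraries stood apart. Control 3, the male, had the highest level of 27 of the 31 genes, while its summed level of 12 macrophage markers was 2394 CPM, against 7311 and 7574 CPM in Control 1 and 2 and 9176 to 12967 CPM in caIKK2EC. Among caIKK2EC libraries, number 1 had the lowest level of 25 of the 31 genes and number 2 the highest of 25. Of 27 markers of heart and skeletal muscle, 1 (Myh4) was at 0 in all libraries, and their sum was 3445 CPM in Control 1 and 1703 CPM in caIKK2EC 1, against 74.2 to 180.8 CPM in the other 6. The sum of 10 fat cell markers was 2822 to 3515 CPM in Control, 6255 CPM in caIKK2EC 1, 867 CPM in caIKK2EC 2 and 1649 to 2283 CPM in caIKK2EC 3 to 5. All 8 endothelial markers were counted, with sums of 2289.9, 3073 and 1537 CPM in the Controls and 2536 to 3191 CPM in caIKK2EC. The part of these tissue differences in the results below was not tested. In whole aortas, fewer smooth muscle cells and less RNA per cell cannot be told apart. According to the column names, lane 7 held the 3 Controls with caIKK2EC 1, and lane 8 the other caIKK2EC libraries.

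**Figure D1:**
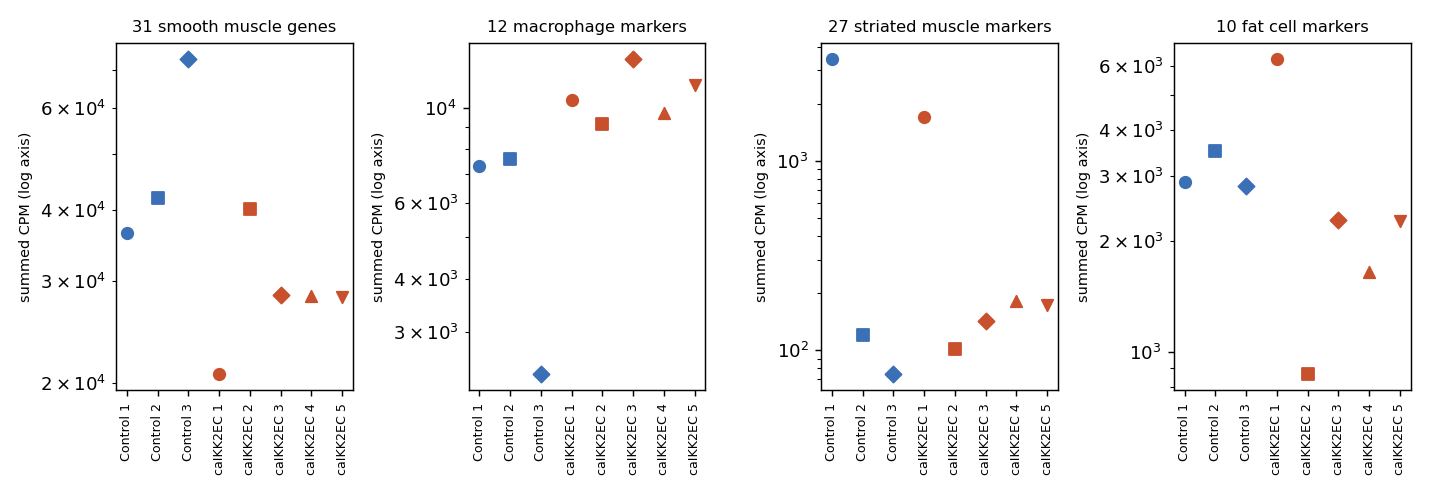
Summed CPM (log axis) of the 31 smooth muscle genes and of the macrophage, striated muscle and fat cell markers in each library, with Control in blue and caIKK2EC in orange. Control 3 was highest for smooth muscle genes and lowest for macrophage markers, and Control 1 and caIKK2EC 1 stood above the rest for striated muscle markers.

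Setting caIKK2EC against Control asks how contractile genes of the aorta differed when the kinase of the NF-κB pathway was switched on in arterial endothelium. All 31 genes had a negative log2 fold change (caIKK2EC over Control), from -1.46 for Pln to -0.21 for Vcl, with a median of -0.76 against -0.02 over all genes tested. No gene of the 31 passed the quasi-likelihood test of edgeR at a Benjamini-Hochberg adjusted p under 0.05, in a comparison in which 0% of the 14679 genes were called lower and 0% higher. At an unadjusted p under 0.05, 23 of 31 were lower and 0 higher, where 7.47% of all genes tested were lower and 9.66% higher. The adjusted p of these 23 ran from 0.107 for Ldb3, which was the lowest of all genes tested, to 0.238 for Flna. DESeq2 called 8 of the 30 to which it gave an adjusted p, all lower (Myh11, Mylk4, Ppp1r14a, Tpm1, Synpo2, Ldb3, Csrp1 and Itga7), where it called 1.51% of all genes lower and 4.55% higher. The authors' deposited table holds the same DESeq2 values for the 31 genes, so its 8 lower and 0 higher at an adjusted p under 0.05 are no second test. In 4 genes (Mylk4, Tpm1, Synpo2 and Ldb3) every caIKK2EC library lay below every Control, as in 3.22% of all genes tested, and in none did every library lie above, as in 7.01% of all genes. In 18 others 4 of 5 caIKK2EC libraries lay below the lowest Control, as in 11.5% of all genes tested. In all 18 the exception was caIKK2EC 2, where 6.05% of all genes tested had 4 libraries below and caIKK2EC 2 as the exception. The 31 genes largely shared their order of libraries, with Control 3 highest for 27 and caIKK2EC 2 highest of its group for 25. Counts of genes in this paragraph are therefore not independent observations, and the comparison rests on 8 mice.

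**Figure D2:**
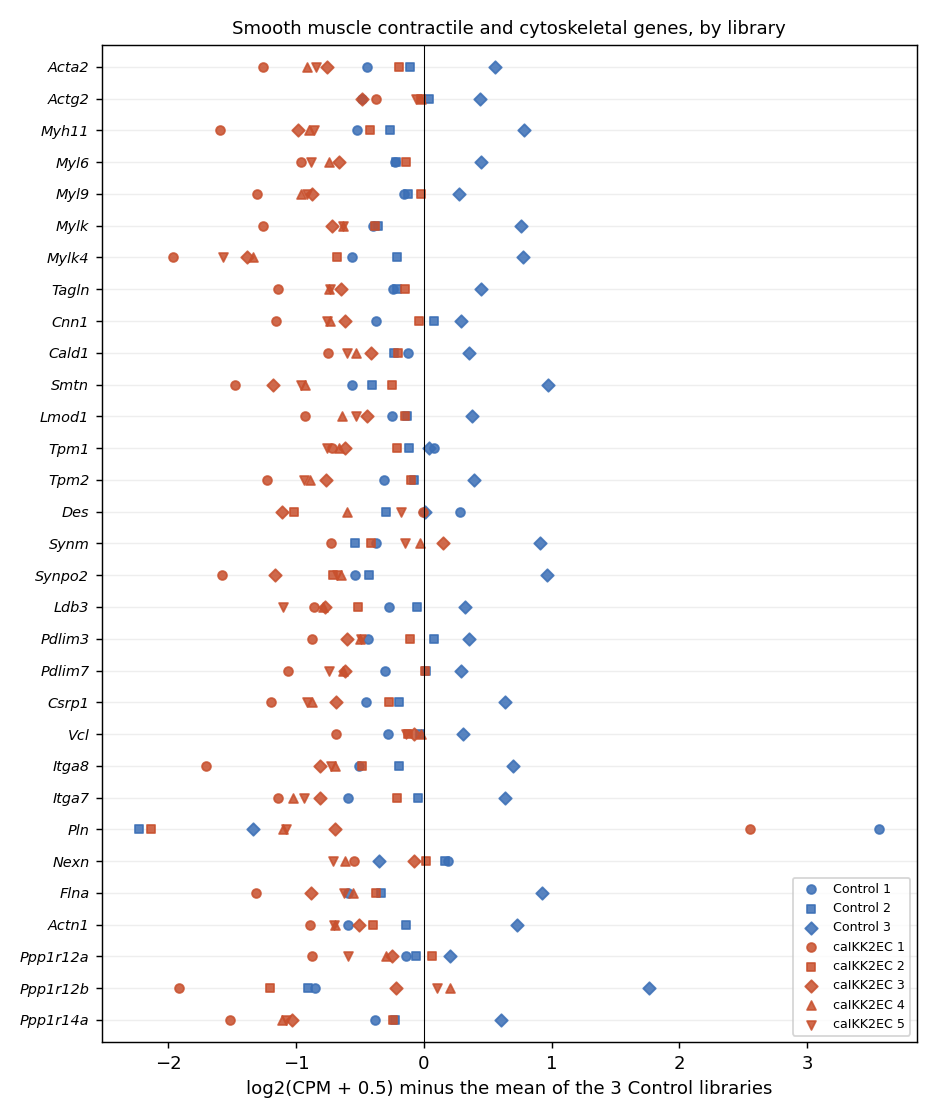
Level of each of the 31 genes in each library as log2(CPM + 0.5) minus the mean of the 3 Controls, with Control in blue, caIKK2EC in orange and a symbol for each library. Control 3 (blue diamonds) lay furthest to the right for most genes, caIKK2EC 1 (orange circles) furthest to the left, and Pln was high in Control 1 and caIKK2EC 1.

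Leaving out Control 3 brought the groups closer. Without it, the median log2 fold change of the 31 genes was -0.43 (-0.01 over all genes tested), and 28 of 31 were below 0. The exceptions were Actg2 (0.02), Synm (0.26) and Ppp1r12b (0.49). At an unadjusted p under 0.05, edgeR then had 4 of 31 lower (Ldb3, Tpm1, Mylk4 and Nexn) and 0 higher, where 3.72% of 15022 genes were lower and 7.67% higher. No gene passed after adjustment over all genes (0% of genes were called). DESeq2 called Ldb3 alone (adjusted p = 0.0237), where it called 0.231% of all genes lower and 2.49% higher. Nexn was the 1 gene of these 4 that had not been past an unadjusted p of 0.05 with all libraries. In 5 genes (Mylk4, Tpm1, Synpo2, Ldb3 and Nexn) every caIKK2EC library lay below both female Controls, as in 6.22% of all genes tested (0 of 31 lay above, against 9.53%). The calls also moved with caIKK2EC 2. Without it, edgeR called 6 of 31 lower (Myl9, Mylk4, Tpm1, Tpm2, Ldb3 and Ppp1r14a) and 0 higher after adjustment, where 0.883% of 14614 genes were called lower and 1.57% higher. At an unadjusted p under 0.05 it then had 25 lower, where 10.1% of genes were lower and 11.5% higher. With age as a covariate, which among Controls separates Control 3 from the others, edgeR called 10 of 31 lower and 0 higher, where it called 1.73% of all genes lower and 2.77% higher. Within lane 7, where caIKK2EC 1 alone stands against the 3 Controls, 30 of 31 differences were negative, with a median of -1.14 and Pln as the exception, given as values with no test.

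**Figure D3:**
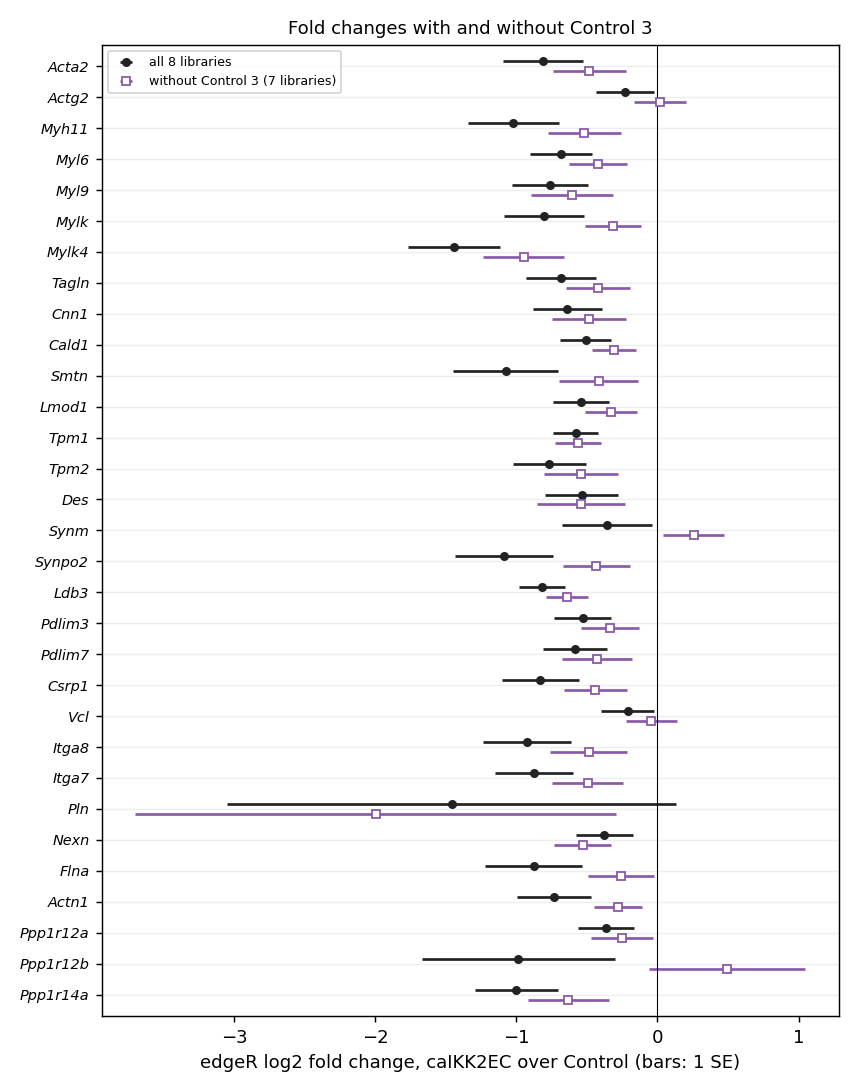
Log2 fold change of each of the 31 genes from edgeR, with bars of 1 standard error, over all 8 libraries (black circles) and without Control 3 (open squares). Most values moved toward 0 without Control 3, Tpm1 went from -0.58 to -0.56 and Ldb3 from -0.82 to -0.64, and Actg2, Synm and Ppp1r12b crossed 0.

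Of the 5 genes of actin and myosin filaments, 4 were lower at an unadjusted p under 0.05, and their median log2 fold change was -0.76, or -0.48 without Control 3. Per kilobase of exon, Acta2, the α-actin of smooth muscle (chr19:34241090-34255590, minus strand, GRCm38), was the most abundant of the 31 genes in Control aortas, at 5438 ± 1983 CPM per kilobase (SD, n = 3). It was at 8393, 10632 and 16801 CPM in Control 1 to 3 and at 4797, 10016, 6784, 6079.6 and 6367 CPM in caIKK2EC 1 to 5. The 4 libraries caIKK2EC 1, 3, 4 and 5 lay below every Control, caIKK2EC 2 lay within the Control range, and Control 3 was far above all others. The log2 fold change was -0.81 (SE 0.28), with an edgeR adjusted p of 0.201, an exact two-sided permutation p of 0.0714 (the smallest that 3 against 5 allows is 0.0357) and a value of -0.48 without Control 3. Myh11, the heavy chain of smooth muscle myosin (chr16:14194535-14291372, minus strand), was at 3335, 3995 and 8268 CPM in Control 1 to 3 and at 1588, 3580.5, 2419, 2569 and 2649 CPM in caIKK2EC 1 to 5. Control 3 was again well above the rest, and caIKK2EC 2 lay above Control 1. The log2 fold change of -1.02 (SE 0.32) was not called by edgeR (adjusted p = 0.171, exact permutation p = 0.0714) and was called by DESeq2 (adjusted p = 0.0299). Without Control 3 it was -0.52, and DESeq2 no longer called it (adjusted p = 0.378). The regulatory light chain gene Myl9 averaged 2262 ± 397 CPM over the Controls and 1336 ± 502 CPM over caIKK2EC (SD, n = 3 and 5), a log2 fold change of -0.76, and the essential light chain gene Myl6 had -0.68 (-0.42 without Control 3). Actg2, the γ-actin that is typical of visceral smooth muscle (chr6:83512905-83536265, minus strand), was at 172, 248 and 327 CPM in Control 1 to 3 and at 186, 238, 172, 237 and 230.4 CPM in caIKK2EC 1 to 5. Its groups overlapped widely. Its log2 fold change of -0.23 (SE 0.20) was among the nearest to 0 of the 31 and was 0.02 without Control 3. Coding sequences of the actins are nearly identical, and how reads that match several of them were counted was not given in the sources used here.

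Of 5 genes that act on the phosphorylation of myosin, 3 were lower at an unadjusted p under 0.05, with a median of -0.98 that was -0.32 without Control 3. Mylk4, of the myosin light chain kinase family (chr13:32700834-32783954, minus strand), was at 165, 210.0 and 417 CPM in Control 1 to 3 and at 62.1, 152, 93.0, 96.4 and 81.6 CPM in caIKK2EC 1 to 5. All 5 caIKK2EC libraries lay below all 3 Controls, although caIKK2EC 2 and Control 1 were close. Its log2 fold change of -1.44 (SE 0.33) was the furthest below 0 of the 31 after that of Pln, with an edgeR adjusted p of 0.109, a DESeq2 adjusted p of 0.00177 and the smallest possible exact permutation p of 0.0357. It was -0.95 without Control 3. Mylk, the main myosin light chain kinase of smooth muscle, averaged 1170.2 ± 579.6 CPM over the Controls and 671 ± 138 CPM over caIKK2EC (SD, n = 3 and 5), a log2 fold change of -0.80 that was -0.32 without Control 3, whose own level was 1839 CPM. Ppp1r14a, which encodes CPI-17, an inhibitor of myosin phosphatase (chr7:29289308-29293801, plus strand), was at 148, 164 and 292 CPM in Control 1 to 3 and at 67.0, 163, 93.6, 88.8 and 90.9 CPM in caIKK2EC 1 to 5. Only caIKK2EC 2 among the caIKK2EC libraries reached the Control range. Its log2 fold change was -1.001 (SE 0.29), and -0.63 without Control 3, with an exact permutation p of 0.0714 and an adjusted p of 0.151 in edgeR and 0.0271 in DESeq2. The targeting subunits of that phosphatase did not pass an unadjusted p of 0.05. Ppp1r12a averaged 295 ± 38.1 CPM over the Controls and 229 ± 55.8 CPM over caIKK2EC, with a log2 fold change of -0.36 (edgeR unadjusted p = 0.0969). Ppp1r12b, the least abundant of the 31 per kilobase, was at 20.2 and 19.4 CPM in Control 1 and 2 and 126 CPM in Control 3, with 9.40 to 42.6 CPM in caIKK2EC. Its log2 fold change of -0.98 turned to 0.49 without Control 3.

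All 7 regulators of the thin filament were lower at an unadjusted p under 0.05, and 1 of them, Tpm1, was called by DESeq2. Their median log2 fold change was -0.64, and -0.42 without Control 3. Tagln, the actin-binding protein SM22α and second in level per kilobase (chr9:45929619-45936058, minus strand), was at 4237, 4345 and 6835 CPM in Control 1 to 3 and at 2277, 4518, 3202, 2997 and 3012 CPM in caIKK2EC 1 to 5. Control 3 was highest, and caIKK2EC 2 lay between Control 2 and Control 3. Its difference of -0.68 (SE 0.25) on the log2 scale, -0.42 without Control 3, had an exact permutation p of 0.107 and an edgeR adjusted p of 0.207. An antisense gene shares 1241 exon bases with Tagln, and whether counting used the strand was not given in the sources used here. Cnn1, calponin 1, which inhibits the myosin ATPase on actin (chr9:22099216-22109630, plus strand), was at 978, 1341 and 1546 CPM in Control 1 to 3 and at 568, 1234, 824, 763 and 750.0 CPM in caIKK2EC 1 to 5. Here caIKK2EC 2 lay between Control 1 and Control 2 and the rest of caIKK2EC below all Controls, for a log2 fold change of -0.64 (SE 0.24), an exact permutation p of 0.0714 and an edgeR adjusted p of 0.231 (-0.49 without Control 3). Smtn, smoothelin, had a log2 fold change of -1.08 that was -0.42 without Control 3, where the level was 2188 CPM against 756 and 841 CPM in the other Controls. Caldesmon (Cald1) and leiomodin 1 (Lmod1), which nucleates actin filaments, had log2 fold changes of -0.51 and -0.54, and of -0.31 and -0.33 without Control 3.

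Among tropomyosins, the muscle genes Tpm1 and Tpm2 were lower in caIKK2EC on average and the non-muscle genes Tpm3 and Tpm4 higher. Tpm1, which lies along the actin filament of muscle (chr9:67022590-67049406, minus strand), was at 1460.2, 1274 and 1418 CPM in Control 1 to 3 and at 842, 1198, 902, 871 and 818 CPM in caIKK2EC 1 to 5. All 5 caIKK2EC libraries lay below all 3 Controls, and Control 3 was not the highest of them. On the log2 scale the difference was -0.58 (SE 0.16), and -0.56 without Control 3, at the smallest possible exact permutation p of 0.0357 (adjusted p = 0.138 in edgeR and 0.00937 in DESeq2). Tpm2, another muscle tropomyosin, averaged 1342 ± 345 CPM over the Controls and 789.7 ± 254 CPM over caIKK2EC (SD, n = 3 and 5), a log2 fold change of -0.76. Tpm4, a tropomyosin of the non-muscle cytoskeleton and not one of the 31, was in contrast at 418, 391 and 301 CPM in Control 1 to 3 and at 524, 517, 586, 565 and 527 CPM in caIKK2EC 1 to 5. Every caIKK2EC library lay above every Control for Tpm4, at 0.55 (SE 0.14) on the log2 scale, and 0.43 without Control 3 (adjusted p = 0.128 in edgeR and 0.00238 in DESeq2). Tpm3, also of the non-muscle type in most cells, had 0.45 and was above Control in every caIKK2EC library too. Tpm3, Tpm4 and the macrophage sum were each lowest in Control 3 and highest in caIKK2EC 3, and the part of macrophages in these differences was not tested. The ratio of Tpm2 to Tpm4 was 2.53, 3.18 and 5.74 for Controls 1 to 3, in that order, against 1.07, 2.37, 1.32, 1.25 and 1.30 for caIKK2EC 1 to 5. All caIKK2EC ratios lay below all Control ratios, by 1.35 on the log2 scale on average and by 1.01 without Control 3 (exact permutation p = 0.0357, adjusted p = 0.107 over the 9 pairs compared).

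**Figure D4:**
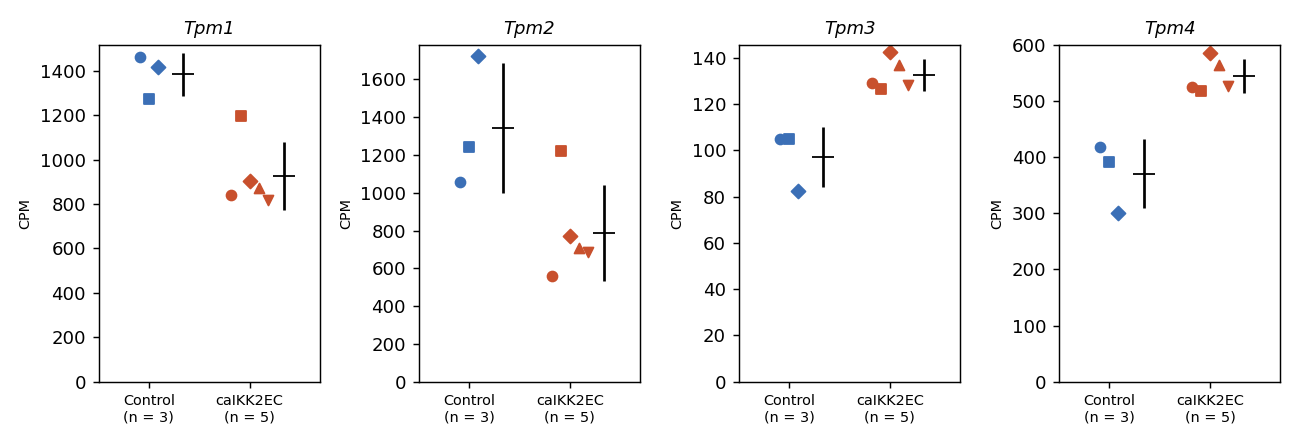
CPM of 4 tropomyosin genes in each library, with Control in blue, caIKK2EC in orange and the group mean ± SD in black; each axis starts at 0. Tpm1 was lower and Tpm3 and Tpm4 were higher in every caIKK2EC library than in any Control, and for Tpm2 the groups met at caIKK2EC 2.

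Those 9 pairs set a smooth muscle gene against a relative of broad or non-muscle expression and were chosen after the levels of the 31 genes were known. Reads of such relatives can come from other cells of the aorta. The macrophage sum was 2394 to 7574 CPM in Control and 9176 to 12967 CPM in caIKK2EC, and its part in these ratios was not tested. Tagln over Tagln2 was 6.43, 6.65 and 8.29 in Control 1 to 3 and 3.63 to 5.75 in caIKK2EC, with no overlap (exact permutation p = 0.0357, adjusted p = 0.107). The difference was -0.65 on the log2 scale and -0.54 without Control 3. Acta2 over Actb, Myh11 over Myh10, Myl9 over Myl12a and Cnn1 over Cnn2 differed by -0.93, -0.45, -0.85 and -0.63, with overlap in each (adjusted exact permutation p = 0.107, or 0.138 for Myl9). Without Control 3 these 4 differences were -0.55, -0.41, -0.55 and -0.45. The ratio of Actn1 to Actn4 differed by -0.13, and that of Actg2 to Actg1 by -0.12 (adjusted exact permutation p = 0.522 and 0.607), and both were above 0 without Control 3 (0.0071 and 0.079). Actg1 was counted at 12.4 to 21.0 CPM, against 2645 to 3864 CPM for Actb. The handling of reads that match several actins is unknown, so the Actg2 to Actg1 ratio may not reflect the levels of these genes. In the list of 16 non-muscle actin and myosin genes, edgeR had 2 higher (Tpm3 and Tpm4) and 1 lower (Actn4, -0.54) at an unadjusted p under 0.05. Over all genes tested, 9.66% were higher and 7.47% lower at that threshold. In the list 0 passed after adjustment, and the median log2 fold change was -0.03. DESeq2 called Tpm3 and Tpm4, where it called 4.55% of all genes higher. Without Control 3, Tpm3 and Tpm4 were still past an unadjusted p of 0.05 and called by DESeq2, while Actn4 was at -0.27 and no gene of the list was lower. In those fits 7.67% of all genes were higher and 3.72% lower at an unadjusted edgeR p under 0.05, and DESeq2 called 2.49% higher.

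Of 9 genes of dense bodies, actin cross-links and adhesion sites, 7 were lower at an unadjusted p under 0.05, with a median of -0.73 that was -0.43 without Control 3. Ldb3, also called ZASP or Cypher, a PDZ and LIM domain protein that binds α-actinin (chr14:34526603-34588682, minus strand), was at 118, 137 and 179 CPM in Control 1 to 3 and at 78.4, 99.9, 83.4, 82.4 and 66.3 CPM in caIKK2EC 1 to 5. All caIKK2EC libraries lay below all Controls. Ldb3 had a log2 fold change of -0.82 (SE 0.16), with an exact permutation p of 0.0357 (adjusted p = 0.107 in edgeR and 0.00131 in DESeq2), and of -0.64 without Control 3. Ldb3 is also a gene of striated muscle. Control 1 and caIKK2EC 1, highest for striated muscle markers, had 118 and 78.4 CPM of it and were not the highest of their groups. The part of striated muscle in the Ldb3 values was not tested. Vcl, vinculin, which links integrin adhesion sites to actin (chr14:20929398-21033676, plus strand), was at 476, 566 and 713 CPM in Control 1 to 3 and at 359, 529, 546, 567 and 524 CPM in caIKK2EC 1 to 5. Its groups overlapped, with caIKK2EC 1 set apart at the low end. Vinculin had the log2 fold change nearest to 0 of the 31, -0.21 (SE 0.19), with an exact permutation p of 0.429 and an edgeR adjusted p of 0.601 (-0.04 without Control 3). Ap3m1 shares 2090 exon bases with Vcl on the opposite strand. Synpo2, an actin-bundling protein of the Z-disc and dense body, averaged 477 ± 302 CPM over the Controls and 225 ± 57.1 CPM over caIKK2EC (SD, n = 3 and 5), with a log2 fold change of -1.09 that was -0.43 without Control 3 (825 CPM in that library, 292 and 314.2 CPM in the other Controls). The LIM domain genes Csrp1, Pdlim7 and Pdlim3 had -0.83, -0.58 and -0.53, and -0.44, -0.43 and -0.34 without Control 3. The actin cross-linkers filamin A (Flna) and α-actinin 1 (Actn1) had -0.88 and -0.73, and -0.25 and -0.28 without Control 3. Nexn, nexilin, an actin-binding protein, was highest in Control 1 and had -0.38, and -0.53 without Control 3.

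Ldb3, with the smallest p of the 31, and Vcl, with the fold change nearest to 0, are shown because they stand at opposite ends of these results, and both hold a CArG box (2 C, 6 bases of A or T, 2 G, which reads as the same element class on both strands) in the 250 bases before a RefSeq start. The windows are shown 5′ to 3′ in the direction of the gene (RefSeq, GRCm38.p6), with the CArG box in capitals. The Ldb3 window is chr14:34588682-34588931, minus strand, with the box beginning 35 bases before the start, and the Vcl window is chr14:20929148-20929397, plus strand, with the box beginning 227 bases before it.
Ldb3: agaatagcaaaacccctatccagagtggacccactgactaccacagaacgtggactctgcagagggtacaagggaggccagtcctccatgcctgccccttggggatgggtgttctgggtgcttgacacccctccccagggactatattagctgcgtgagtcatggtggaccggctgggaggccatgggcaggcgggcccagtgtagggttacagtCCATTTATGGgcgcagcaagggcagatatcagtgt
Vcl: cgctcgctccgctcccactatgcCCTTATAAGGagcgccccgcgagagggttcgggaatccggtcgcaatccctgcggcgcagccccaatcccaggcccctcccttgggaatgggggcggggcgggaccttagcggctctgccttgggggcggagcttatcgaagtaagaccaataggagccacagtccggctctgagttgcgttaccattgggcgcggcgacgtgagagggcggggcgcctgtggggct
Promoter windows of 300 bases (250 before and 50 after the start) matched 26 of the 31 genes by symbol. Actg2, Myh11, Tagln, Itga7 and Nexn had none. An exact CArG box was found in 4 of the 26 (15.4%), in Ldb3, Vcl, Myl9 (CCTAATAAGG) and Myl6 (CCTTATATGG), and in 535 of all 32851 windows (1.63%), or 488 of 27025 genes (1.81%). The 4 genes with an exact box had a median log2 fold change of -0.72, from -0.82 to -0.21. The 22 without an exact box had -0.78, from -1.46 to -0.36. The exact search passes over near matches, and Acta2 is among these 22 although its window holds ccctatatgg and ccttgtttgg, each a single base off the pattern. The medians therefore do not compare genes with and without a working CArG box.

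Neither of the 2 intermediate filament genes nor Pln, a regulator of the calcium pump, passed an unadjusted p of 0.05. Desmin (Des), the muscle intermediate filament protein, was at 186, 124 and 154 CPM in Control 1 to 3 and at 152, 75.4, 70.5, 101 and 135 CPM in caIKK2EC 1 to 5, with a log2 fold change of -0.54 (edgeR unadjusted p = 0.0645). It was highest in Control 1 and, within caIKK2EC, in caIKK2EC 1. Synemin (Synm) had -0.36, and 0.26 without Control 3. Pln, phospholamban, which restrains the calcium pump of the sarcoplasmic reticulum in heart and smooth muscle (chr10:53337667-53345987, plus strand), was at 279, 4.55 and 8.85 CPM in Control 1 to 3 and at 138, 4.89, 14.1, 10.5 and 10.7 CPM in caIKK2EC 1 to 5. Control 1 and caIKK2EC 1 were far above the other 6 libraries. Its log2 fold change of -1.46 (SE 1.59) had an edgeR adjusted p of 0.692 and turned to 2.45 without Control 1. The heart myosin gene Myh6 was also highest in Control 1 (902 CPM) and caIKK2EC 1 (480.2 CPM), against 23.02 CPM in caIKK2EC 3 and 5.05 to 13.4 CPM in the other 5. The part of heart tissue in the Pln values was not tested. On the opposite strand, the gene Gm47644 shares 1644 exon bases with Pln. The median of the other 30 genes, Pln left out, was -0.75.

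Both integrin genes were lower at an unadjusted p under 0.05. Itga8, the α8 chain of a fibronectin and nephronectin receptor of smooth muscle, averaged 1822 ± 836 CPM over the Controls and 960.2 ± 261 CPM over caIKK2EC (SD, n = 3 and 5), a log2 fold change of -0.92, and -0.49 without Control 3. Itga7, the α7 chain of a laminin receptor, averaged 252 ± 108 CPM over the Controls and 137 ± 38.9 CPM over caIKK2EC, a log2 fold change of -0.88, and -0.49 without Control 3. In both, 4 caIKK2EC libraries lay below every Control and caIKK2EC 2 did not.

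Other genes of the pathway were described by lists. Of 12 regulators of smooth muscle transcription, 2 were lower (Foxo4 and Mef2c) and 1 higher (Mkl1, a coactivator of serum response factor) at an unadjusted edgeR p under 0.05. Over all genes tested, 7.47% were lower and 9.66% higher at that threshold. Of the 12 regulators, 0 passed after adjustment or in DESeq2. Their median log2 fold change was -0.20, and 0.07 without Control 3. Mkl1 had 0.29 (SE 0.10) and lay above Control in every caIKK2EC library, as in 7.01% of all genes tested. Foxo4, a repressor of the contractile state, had -0.29 (SE 0.10) and lay below in every one, as in 3.22% of all genes tested. With lane as a covariate Mkl1 had 0.16 and Foxo4 -0.16. Mef2c had -0.43, and -0.17 without Control 3. Of 22 genes of contraction signalling, 9 were lower and 0 higher at an unadjusted p under 0.05, where 7.47% of all genes tested were lower and 9.66% higher. None of them passed after adjustment in edgeR, DESeq2 called 2 lower (Ppp1cb and Rock1), and the median was -0.38. Without Control 3, 2 were lower at an unadjusted p under 0.05 (Ppp1cb and Rock1), where 3.72% of all genes were, and the median was -0.15. Ppp1cb, the catalytic subunit of myosin phosphatase, was at 383, 401 and 542 CPM in Control 1 to 3 and at 286, 294, 301, 320.4 and 331 CPM in caIKK2EC 1 to 5. All caIKK2EC libraries lay below all Controls, with a log2 fold change of -0.53 (SE 0.14) (DESeq2 adjusted p = 0.0139), and -0.35 without Control 3 (DESeq2 adjusted p = 0.0372). Rock1, a kinase that inhibits this phosphatase, had -0.60 (SE 0.18), called by DESeq2 (adjusted p = 0.0434), and -0.48 without Control 3, no longer called (adjusted p = 0.268). Kcnma1, a calcium-activated potassium channel, had -0.88 (SE 0.31), and -0.50 without Control 3.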

How the data were processed

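Poly(A) RNA of whole aortas was sequenced as single reads of 50 nt from a directional library, per the labels' protocols. The deposited table holds raw counts per gene symbol. The submitters' processing notes name STAR 2.7.0e, DESeq2 1.22.2 and GRCm38 (mm10), while counting program, annotation and strand setting were not given in the sources used here. From the authors' deposited comparison table, the log2 fold changes, their standard errors (held as a score) and p-values were read. Columns were matched to samples by the identifier in their names, and no library pair differed as little as sampling noise (lowest chi-square per degree of freedom 16.9).

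Counts were tested with edgeR 4.0.16 (R 4.3.3, limma 3.58.1): TMM factors, the default filter by group, a robust quasi-likelihood fit on genotype alone, with Benjamini-Hochberg adjustment over 14679 genes at 0.05. Standard errors are the log2 fold change over the root of F. Alternatives were DESeq2 1.42.0 (genes with a total of 10 or more, Wald test), other scaling, no filter, lane, sex or age as a covariate, the replicate number as a block and leaving out each library. Exact permutation tests used all 56 splits on log2(CPM + 0.5). Gene positions and exon lengths come from GENCODE M21 (GRCm38). Of these fits, only the edgeR fit on genotype alone was tested on simulated data.

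The 31 genes and the other lists were chosen with earlier results of these data known. Values in every library are given for Acta2, Myh11, Tagln, Cnn1, the 4 genes with the smallest edgeR p, the 2 with the highest fold change and the 1 with the widest range within a group; Des, Tpm4, Ppp1cb and Notch3 were added after their values were seen. Of other lists, up to 3 genes with the smallest p are named, with a few relatives beside them. Of the marker lists, edgeR at an unadjusted p under 0.05 had 11 of 12 macrophage genes higher and 0 lower, 1 of 8 endothelial genes higher (Vwf), 1 of 7 fibroblast genes higher (Lum), 0 of 10 fat cell genes in either direction, 3 of 7 mural cell genes lower, and 1 higher and 1 lower of 23 striated muscle genes tested. Over all genes tested, 7.47% were lower and 9.66% higher at that threshold. The 2 guanylate cyclase genes of the signalling list were matched by their older symbols. Of the 9 muscle and non-muscle pairs, over which p-values were adjusted, 1 is not reported here.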

Additional observations from a re-analysis of the deposited data

Results flagged for a closer look

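In 3 of the 31 genes, 1 caIKK2EC library was further from its nearest neighbour than Dixon's 95% critical value for 5 samples allows (0.710 of the range on the log2 scale). Chance flags about 1 in 20 groups. Tpm1 was highest in caIKK2EC 2, at 1198 CPM against 818 to 902 CPM in the others. Vcl was lowest in caIKK2EC 1, at 359 CPM against 524 to 567 CPM. Itga8 was also lowest in caIKK2EC 1, at 524 CPM against 972 to 1221 CPM. Both libraries are at the ends of the caIKK2EC group for 25 of the 31 genes each.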

How the results depend on the processing

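The number of genes that edgeR called over the whole table was 0, against 869 with DESeq2 and 661 with age as a covariate, and 0 to 359 when 1 library was left out (359 without caIKK2EC 2, 0 without any other). Of the 31 genes, 0 were called, against 8 with DESeq2, 10 with age as a covariate and 0 to 6 when 1 library was left out (6 without caIKK2EC 2: Myl9, Mylk4, Tpm1, Tpm2, Ldb3 and Ppp1r14a, where 0.883% of all genes were called lower). Among Controls, age sets Control 3 alone apart. At an unadjusted p under 0.05, 23 were lower, against 4 with sex as a covariate (3.82% of all genes lower), 11 with a replicate block over numbers 1 to 3 of both groups (3.39%), and 4 (without Control 3) to 25 (without caIKK2EC 2) when 1 library was left out. Control 3 was the only male, so sex as a covariate nearly repeats leaving out Control 3 and is no separate check. Same-numbered libraries share a number in their titles. Their deviations from the group means correlated at 0.34, 0.004 and 0.23 over 12609 genes. For Control 1 and Control 3 the same number gave the highest correlation among caIKK2EC 1 to 3. Control 2 was near 0 with each of them (0.005, 0.004 and -0.012, in that order). These values do not decide whether same-numbered libraries were paired. The median log2 fold change of -0.76 was -1.17 with lane as a covariate, -1.14 within lane 7 alone (chosen after seeing the data), and -0.84 to -0.43 when 1 library was left out. Lane 8 held no Control. With lane as a covariate, the genotype difference therefore rests on caIKK2EC 1 against the 3 Controls, the same comparison as within lane 7. The 4 genes without overlap became 4 to 22 when 1 library was left out (16 without Control 1, where 7.25% of all genes lay below Control, and 22 without caIKK2EC 2, where 9.29% did). The log2 fold change of Actg2 ran from -0.42 to 0.017 when 1 library was left out, above 0 without Control 3. With sex as a covariate, nearly the same fit, it was also 0.017. The log2 fold change of Pln changed sign with lane as a covariate (0.50) and ran from -3.27 (without caIKK2EC 1) to 2.45 (without Control 1). The number of genes at the smallest exact p was 4 with 0.5 or 5 added to the CPM. Other scaling and no filter left each of these counts within 1.5 times its value; the cause of the changes above was not tested.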

Other observations

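Of 7 genes of mural cells, a class that holds smooth muscle and pericytes, 3 were lower at an unadjusted edgeR p under 0.05 with all libraries (Cspg4, -0.97, Mcam, -0.61, and Kcnj8, -0.56), where 7.47% of all genes tested were lower. After adjustment or in DESeq2, 0 of the 7 passed. Without Control 3 none of the 7 was lower at that threshold, and these 3 were at -0.33, -0.37 and -0.47. Notch3, a receptor of arterial smooth muscle, and Rgs5, a regulator of G protein signalling in mural cells, had log2 fold changes of 0.17 and 0.31. Without Control 3 these 2 were 0.72 and 0.69 (both past an unadjusted p of 0.05 in edgeR, neither after adjustment, and both called higher by DESeq2 at adjusted p = 0.0027 and 0.0249), while Acta2 was at -0.48 and Myh11 at -0.52. In those fits, 7.67% of all genes tested were higher at an unadjusted edgeR p under 0.05, and DESeq2 called 2.49% higher. Notch3 was at 80.9, 66.9 and 177 CPM in Control 1 to 3 and at 106, 104, 136, 140.2 and 123 CPM in caIKK2EC 1 to 5. Both female Controls lay below every caIKK2EC library, and Control 3 lay above them all.

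Actg1, a cytoplasmic actin gene, was counted at 12.4 to 21.0 CPM, while Actb, the other cytoplasmic actin gene, was at 2645 to 3864 CPM. The cause of this difference was not tested.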
